A study of Homo sapiens with 30 samples.

Results

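The chromatin response of VCaP cells to low doses of androgen was read from 9 of the 30 libraries of the series. They are the 3 VCaP libraries at 0.01 nM R1881, the 3 at 0.03 nM and the 3 with vehicle, chosen by their labels. VCaP is an established human prostate cancer line that responds to androgen and carries a fusion of TMPRSS2 with ERG, and R1881 is a synthetic androgen that cells break down slowly. The cells of all 9 libraries, like those of the other VCaP libraries, had been kept for 48 hours in medium with 8% charcoal-treated serum, which is low in steroids. They then received R1881 or vehicle for 24 hours. Replicates are numbered 1, 2 and 4 in each VCaP group. The series also holds VCaP at 0.06 and 10 nM and 15 libraries of LNCaP, another androgen-responsive prostate cancer line. Accessibility was measured by Omni-ATAC-seq, in which the Tn5 transposase cuts open DNA and tags it for sequencing. Nothing in the labels says that replicates were separate cultures, so the p-values measure the spread between these libraries.

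Androgens change transcription through response elements, inverted pairs of a motif related to AGAACA, which lie mostly in enhancers far from promoters and often beside binding sites of the pioneer factor FOXA1. Coactivators recruited to such elements open the chromatin around them. These 2 doses, the lowest used in VCaP, ask which sites open first.

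Each library came as a list of peaks, and the value of a region in a library is the rank of its peak within that list. Lists were shortened to the same length, 104726 entries, keeping the peaks of highest −log10 p. The rank is a percentile from 0 to 100, where 100 is the strongest peak of the library and 0 means that no peak was listed at the region. A region is a window of 501 bp around a peak summit, and 99637 regions were tested, those listed in 3 or more of the 9 libraries. Differences are in percentile points, and a region was called at an adjusted p under 0.05 (limma, Benjamini-Hochberg over all regions tested). A rank is a place within a library and not an absolute signal. In bulk chromatin, a site opening in more cells and a site opening further in the same cells cannot be told apart.

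The libraries differed in depth. The background pileup, a measure of relative depth recovered from the lists, was 1.78 to 2.74 in the 6 low-dose libraries, against 1.14, 1.09 and 2.11 in vehicle replicates 1, 2 and 4. That difference had an exact permutation p of 0.0357 (two-sided, 6 against 3, 84 arrangements, adjusted p = 0.214 over 6 library measures). Strong peaks, of a −log10 q of 5 or more, numbered 55088 ± 20916 in the low-dose libraries (SD, n = 6) and 45973 ± 19088 in vehicle (SD, n = 3), and replicate 2 had the fewest in every group. The vehicle libraries did not share a depth, so differences are also given with vehicle replicate 4 as the only vehicle library. Peaks lay within 1 kb of either gene end for 7 to 8 of 8 luminal epithelial genes in the low-dose libraries and for 7 in each vehicle library. Stromal genes had them for 2 to 3 of 5 in the low-dose libraries and 2 in vehicle, basal genes for 0 to 1 of 3 and 0 to 2, immune genes for 1 to 3 of 5 and 2 to 3, and neuroendocrine genes for all 5 in every library. TP63 (basal) and DCN (stromal) had none in any of the 9 libraries. A peak near a gene end is no measure of expression, and the part of other cells in the results was not tested.

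At 0.01 and 0.03 nM together, peaks at a small set of sites rose in the ranking, and fewer fell. Of the 99637 regions tested, 255 were higher (0.256%) and 61 lower (0.0612%) than with vehicle, 316 in all (0.317%). The median difference was 48.3 points at the higher and −43.4 points at the lower regions, beside −0.60 over all regions tested. In 228 of the 255 higher regions, every low-dose library lay above every vehicle library, while the groups were apart in either direction at 3.02% of all regions tested; the regions were chosen by this difference, so the count is a description. No peak was listed in any vehicle library at 43 of the 255, while 107 had a peak in all 9 libraries and moved up within the list. The 43 were tested only through the low-dose libraries, where they are high.

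The levels at each dose are given next as a description, since both doses chose these regions. At the 255 higher regions, the median over regions was 74.4, 72.3 and 71.4 points in the 0.01 nM libraries (replicates 1, 2 and 4) and 84.6, 80.4 and 82.0 points in the 0.03 nM libraries, against 39.7, 0 and 34.1 points in vehicle. The 2 doses did not overlap each other or vehicle, and the 0 belongs to vehicle replicate 2, one of the shallow libraries. The libraries at 0.06 nM, 89.5, 86.3 and 87.4 points, and at 10 nM, 90.4, 89.2 and 88.8 points, were higher again. The mean at 0.03 nM exceeded that at 0.01 nM in 221 of the 255 regions, or 86.7%, against 41.2% of all regions tested. At 0.06 nM the mean exceeded that at 0.03 nM in 216 of them, or 84.7%, against 54.7% of all regions tested.

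**Figure D1:**
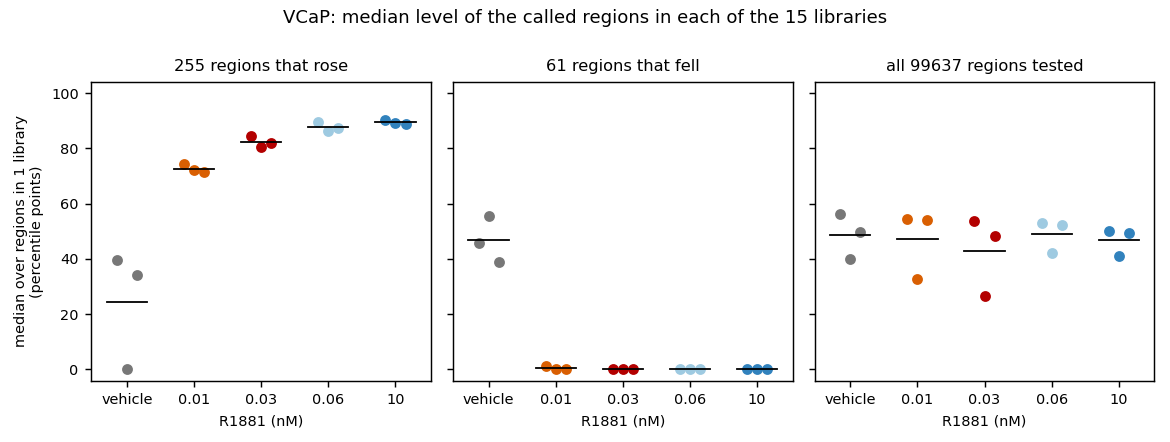
Median level, in percentile points, over the 255 regions that rose, the 61 that fell and all 99637 tested, in each VCaP library by R1881 dose (nM). Each point is 1 library and each bar the mean of 3. Regions that rose had medians of 71.4 to 84.6 points at 0.01 and 0.03 nM, and 0 to 39.7 points in vehicle.

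Taken alone, 0.03 nM gave 293 called regions (0.294%), 254 higher and 39 lower than vehicle. The 0.01 nM group alone gave 32 (0.0321%), 30 higher and 2 lower. These counts share the vehicle libraries, and the direct comparison of 0.03 with 0.01 nM called 2 regions (0.00201%), with 4031 at an unadjusted p under 0.05. Both were lower at 0.03 nM, and 1489 regions were higher there at an unadjusted p under 0.05. One lay 0.898 kb from IDE, the insulin-degrading enzyme gene, with 0, 0 and 5.5 points at 0.03 nM and 90.4, 92.4 and 94.9 points at 0.01 nM. The other lay 0.791 kb from IBTK, with 33.3, 0 and 22.3 points at 0.03 nM and 93.0, 87.6 and 93.7 points at 0.01 nM. In vehicle both sites were high too, with 90.9, 93.5 and 95.4 points at IDE and 92.05, 82.4 and 89.4 points at IBTK. They were high again at 0.06 and 10 nM, so only the 0.03 nM libraries were low. Both count as lower with the 2 doses together, although 0.01 nM differed from vehicle by only −0.68 points at IDE and 3.43 points at IBTK. Neither was called when a peak had only to overlap the region by 1 bp.

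The number of calls leans on the 6 VCaP libraries at 0.06 and 10 nM, which shared in the estimate of the spread and not in the differences themselves. With the 9 libraries alone the limma calls fell to 10 higher and 0 lower (2815 and 2490 at an unadjusted p under 0.05), and no region named below passed (SPOCK1 came closest, adjusted p = 0.0562). With vehicle replicate 4 as the only vehicle library, all 255 higher and all 61 lower regions kept their direction, though that library also helped to choose them. In that setting the vehicle arm is 1 sample, which is assumed to vary like the libraries of the other groups. No call of a region is therefore read from it.

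Among rises with separate groups that were also called under both other ways of matching peaks to regions (an overlap of 1 bp, or a summit within 250 bp), 1 per gene, the 12 largest lay in or near SPOCK1, ZNF280C, ILRUN, ZDHHC21, FYB1, LLPH, ALDH2, ATRX, FILIP1L, GCNT1, MYL10 and SMARCAL1. A region is named by the closest body of a protein-coding gene, up to 100 kb away, which does not show that the gene is regulated from it. All 12 rose by 64.1 to 79.6 points, with adjusted p of 2.52e-06 to 0.00874. Their values ran from 20.8 to 92.6 points in the low-dose libraries and from 0 to 17.5 points in the vehicle libraries. In 8 of the 12 no vehicle library listed a peak, so these were tested only through the low-dose libraries, where they are high.

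A site inside SPOCK1, which encodes the proteoglycan testican-1 (chr5:137080137-137080637), had the largest rise of the 12, while the largest of all 255 was 82.2 points. It had 75.3, 76.4 and 64.6 points at 0.01 nM and 87.5, 85.2 and 88.7 points at 0.03 nM, against 0 in all 3 vehicle libraries. The low-dose libraries thus placed this site in the upper part of their lists, where vehicle listed nothing. The difference was 79.6 ± 6.08 points (SE, limma adjusted p = 2.52e-06). At 0.06 nM the mean was 89.98 ± 3.25 points and at 10 nM 94.4 ± 0.932 points (SD, n = 3 each).

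A site inside ILRUN, a regulator of innate immune signalling (chr6:34595709-34596209), had 70.8, 72.0 and 66.2 points at 0.01 nM and 89.8, 89.0 and 92.6 points at 0.03 nM, against 17.5, 0 and 0 points in vehicle. The difference was 74.3 ± 5.61 points (SE, limma adjusted p = 2.52e-06), and the doses did not overlap. A site 7.26 kb from ZDHHC21, a palmitoyltransferase gene (chr9:14700443-14700943), had 52.2, 50.8 and 76.4 points at 0.01 nM and 88.3, 89.4 and 88.4 points at 0.03 nM, against 0, 0 and 6.5 points in vehicle. It rose by 72.1 ± 6.98 points (SE, limma adjusted p = 5.62e-05). Both sites reached over 90 points at 0.06 nM, with means of 96.6 ± 1.40 at ILRUN and 92.7 ± 1.39 at ZDHHC21 (SD, n = 3 each).

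At other sites 0.01 and 0.03 nM gave much the same rank. A site 5.02 kb from ZNF280C, a zinc finger gene (chrX:130197435-130197935), had 72.8, 77.1 and 69.5 points at 0.01 nM and 82.5, 72.2 and 74.7 points at 0.03 nM, against 1.4, 0 and 0 points in vehicle. A site inside FYB1, an adapter protein of immune cells (chr5:39188027-39188527), had 74.5, 77.1 and 64.0 points at 0.01 nM and 81.3, 58.6 and 72.9 points at 0.03 nM, against 0 in all vehicle libraries. The 2 doses overlapped at both sites, as they did near MYL10, a myosin light chain gene (60.5, 73.1 and 69.3 points at 0.01 nM, 58.6, 53.7 and 70.9 points at 0.03 nM, 0 in vehicle). FYB1 and MYL10 were the 2 of the 12 whose mean was not higher at 0.03 than at 0.01 nM.

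At LLPH, ALDH2, ATRX and FILIP1L, 1 or 2 of the 0.01 nM libraries lay well below the rest. The site 60.4 kb from LLPH had 78.1, 20.8 and 74.0 points at 0.01 nM and 88.8, 75.3 and 87.3 points at 0.03 nM, and the site inside FILIP1L had 79.9, 40.9 and 28.6 points at 0.01 nM and 85.1, 90.2 and 83.6 points at 0.03 nM, against 0 in vehicle at both. ALDH2, which encodes a mitochondrial aldehyde dehydrogenase, and ATRX, a chromatin remodeller, had lowest 0.01 nM values of 31.5 and 40.9 points, both in replicate 2. With vehicle replicate 4 as the only vehicle library, the differences of the 12 ran from 64.1 points at SMARCAL1 to 80.1 points at ILRUN. Where all vehicle libraries were at 0, that setting leaves the difference as it was. GCNT1, a glycosyltransferase of O-glycan branching, and SMARCAL1, a helicase that acts at stalled replication forks, rose by 66.4 ± 8.99 and 64.1 ± 8.46 points (SE) with all vehicle libraries.

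**Figure D2:**
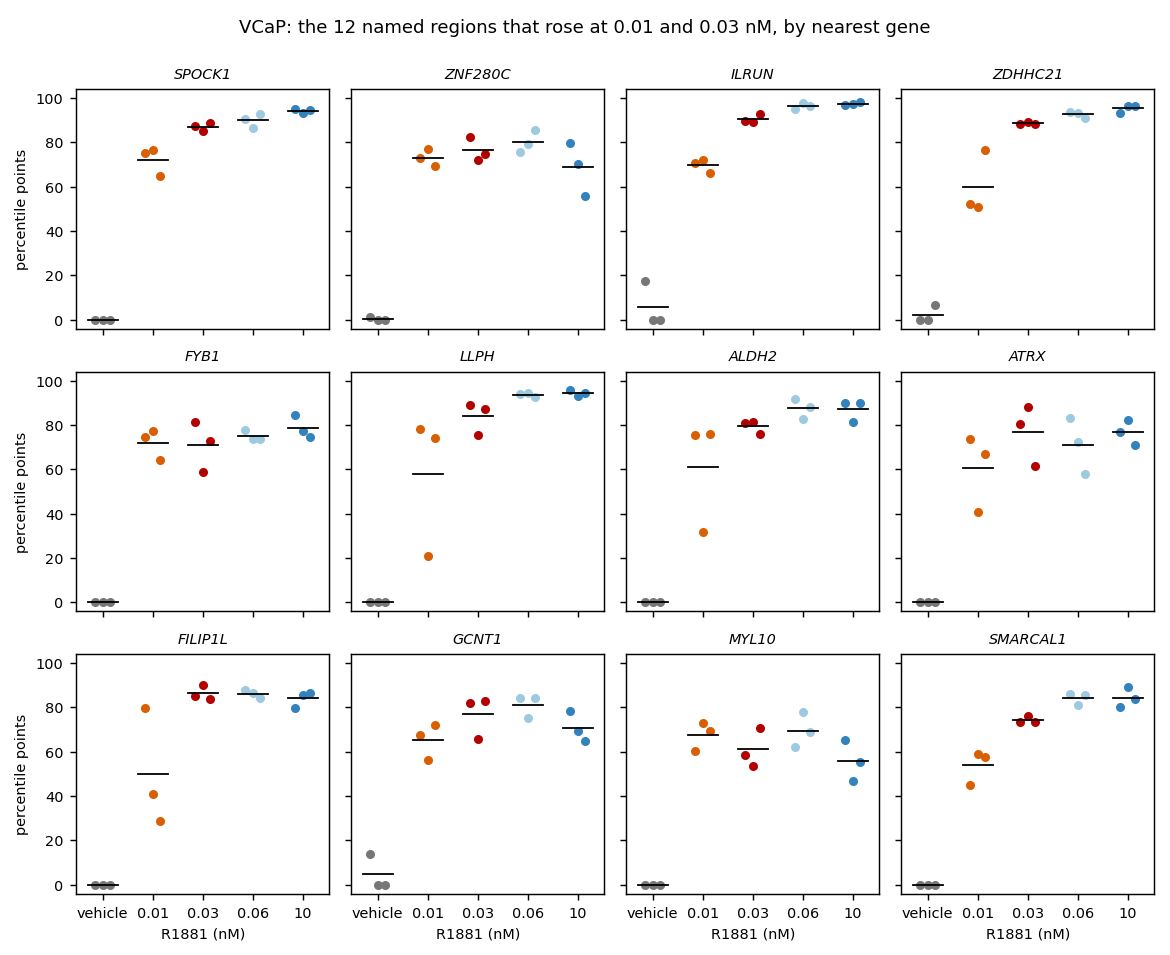
Percentile rank of the 12 named regions that rose, by nearest gene, in every VCaP library against R1881 dose (nM). Points are libraries and bars are means of 3. Low-dose libraries lie between 20.8 and 92.6 points and vehicle libraries between 0 and 17.5 points.

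The regions that rose lay away from gene ends. Of the 255, 30 (11.8%) were within 1 kb of either end of a protein-coding gene, against 20.2% of all regions tested. Inside a gene lay 55.3%, against 53.2%, and 39 had no gene within 100 kb (15.3%, against 12.6%). The 61 regions that fell had 3 (4.92%) near a gene end and 16 (26.2%) with no gene within 100 kb. These shares are descriptions without a test.

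Of the 255 regions, 13 touched a promoter window in the RefSeq set used here (GRCh38.p14), and none of the 61 did. A window spans 250 bases before to 50 after a gene's start. The set appears to lack windows on part of the genome, so regions there could not be counted. The 13 covered 15 promoter windows. AGAACA, the core motif of the androgen response element, was found on either strand in 2 of the 15 windows, against 14.8% of all 34961 windows. TGTTTAC, a motif of FOXA factors, was in 3 (3.42% of all), and CCGGAAG, a motif of ETS factors, in 1 (10.3% of all). Motifs were counted over the whole window, which a region may only touch. At ZBTB42 the region reaches only the first base of the window, and the FOXA motif lies outside it. At MC3R the region covers only the start of the window, with the FOXA motif at its edge. At LOC124903164 the FOXA motif lies inside the region. No window held 2 AGAACA motifs head to head with 3 bases between them, which 1 of the 34961 did. The 3 below are shown because they differ in what they hold. The TRIM7 window has 2 AGAACA motifs, that of LOC124903164 an AGAACA and a FOXA motif, and that of TP53I11 none of the motifs. Capitals mark the motif letters, on either strand, and a match is a match of letters and not a shown binding site.
TRIM7, chr5:181204291-181204590, minus strand: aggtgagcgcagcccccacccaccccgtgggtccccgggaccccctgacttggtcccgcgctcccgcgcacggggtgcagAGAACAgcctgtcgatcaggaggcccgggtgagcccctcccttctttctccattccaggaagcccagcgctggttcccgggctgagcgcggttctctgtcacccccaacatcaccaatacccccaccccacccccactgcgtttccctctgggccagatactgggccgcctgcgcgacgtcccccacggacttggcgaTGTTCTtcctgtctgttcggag
LOC124903164, chr13:42747407-42747706, minus strand: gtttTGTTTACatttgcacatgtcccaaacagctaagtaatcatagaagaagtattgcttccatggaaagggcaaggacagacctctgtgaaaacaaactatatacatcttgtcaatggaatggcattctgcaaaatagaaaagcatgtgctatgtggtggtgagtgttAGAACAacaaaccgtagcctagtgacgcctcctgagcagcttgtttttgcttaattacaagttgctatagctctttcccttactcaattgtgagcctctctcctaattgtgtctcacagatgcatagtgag
TP53I11, chr11:44950834-44951133, minus strand: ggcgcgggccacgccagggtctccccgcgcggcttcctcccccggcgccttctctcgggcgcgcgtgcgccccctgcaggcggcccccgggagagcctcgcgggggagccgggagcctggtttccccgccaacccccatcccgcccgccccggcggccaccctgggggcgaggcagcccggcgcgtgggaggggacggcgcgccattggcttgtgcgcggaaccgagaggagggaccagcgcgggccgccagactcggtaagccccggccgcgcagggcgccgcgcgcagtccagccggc

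The site at the start of TRIM7, a tripartite motif ubiquitin ligase (chr5:181204048-181204548), had 89.9, 87.5 and 85.1 points at 0.01 nM and 89.4, 61.4 and 87.2 points at 0.03 nM, against 27.4, 34.4 and 0.25 points in vehicle. It rose by 62.7 ± 7.82 points (SE, limma adjusted p = 0.000836), but not when a peak had only to overlap by 1 bp (adjusted p = 0.591). The site at LOC124903164 (chr13:42747355-42747855) had 59.2, 70.8 and 55.2 points at 0.01 nM and 71.3, 56.3 and 74.4 points at 0.03 nM, against 36.3, 28.4 and 39.0 points in vehicle. Low-dose and vehicle libraries did not overlap there (difference 29.99 ± 6.31 points, SE, limma adjusted p = 0.0446), and the mean was 92.2 points at 0.06 nM. The site at TP53I11, a gene induced by p53 (chr11:44950598-44951098), was high without androgen, with 88.3, 89.4 and 85.8 points at 0.01 nM and 92.4, 89.6 and 84.3 points at 0.03 nM, against 76.4, 69.4 and 73.4 points in vehicle (limma adjusted p = 0.0173). The last 2 kept their call under both other ways of matching peaks to regions. With vehicle replicate 4 as the only vehicle library, the difference was 25.5 points at LOC124903164 and 14.9 points at TP53I11.

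Among genes known to be induced by androgen, 6 of the 47 with a tested region had one that rose at the low doses. None had one under its own name that fell (limma, with 12 of 478 regions lower at an unadjusted p under 0.05). A fall at chr8:80144380-80144880, named TPD52-MRPS28 and described below, is thus not counted for TPD52. The 5 described here were IQGAP2, LIFR, TPD52, TRPM8 and TUBA3D. The calls are 6 of the 478 regions (1.26%), beside 0.256% higher among all regions tested, with a median difference of −0.0033 points over the list's regions and −0.60 over all regions tested.

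A site inside TPD52, a tumour protein gene amplified in prostate cancer (chr8:80078218-80078718), had 52.8, 56.9 and 72.9 points at 0.01 nM and 79.4, 81.2 and 83.7 points at 0.03 nM, against 56.9, 0 and 6.4 points in vehicle. Vehicle replicate 1 overlapped the 0.01 nM libraries at TPD52 (difference 50.002 ± 9.52 points, SE, limma adjusted p = 0.0257). With vehicle replicate 4 as the only vehicle library, the TPD52 difference was 64.7 points. That setting leaves out vehicle replicate 1, the highest of the vehicle libraries at this site.

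The site 0.965 kb from TRPM8, a cold-sensing cation channel of prostate epithelium (chr2:234020237-234020737), was high from the start, with 75.4, 83.7 and 79.6 points at 0.01 nM and 89.2, 89.4 and 86.6 points at 0.03 nM, against 65.1, 71.2 and 65.7 points in vehicle. The difference was 16.7 ± 3.47 points (SE, limma adjusted p = 0.0413). At 10 nM it stood at 79.6 ± 4.70 points, below the 88.3 ± 0.431 points of 0.06 nM (SD, n = 3 each). LIFR, a cytokine receptor gene, and TUBA3D, a tubulin gene, rose by 29.5 ± 5.52 and 45.6 ± 8.58 points (SE). At a site inside IQGAP2, a scaffold protein gene, the values were 76.6, 58.7 and 76.5 points at 0.01 nM and 45.4, 57.5 and 72.6 points at 0.03 nM, against 0 in all vehicle libraries, but the call was not made with an overlap of 1 bp (adjusted p = 0.873).

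Several widely used androgen target genes had no called region. At KLK3, which encodes prostate-specific antigen, the region tested (chr19:50850677-50851177) had 92.7, 82.2 and 93.0 points at 0.01 nM and 94.5, 86.4 and 94.5 points at 0.03 nM, against 94.2, 89.1 and 95.8 points in vehicle (limma adjusted p = 0.822). It stood near the top of every list. At KLK2, a related protease gene, the region of smallest p had 94.6, 96.4 and 91.5 points at 0.01 nM and 98.1, 97.6 and 97.0 points at 0.03 nM, against 91.7, 88.3 and 89.6 points in vehicle (limma adjusted p = 0.0723). The groups overlapped at KLK2, where 1 of the 0.01 nM libraries (91.5 points) lay below vehicle replicate 1 (91.7 points), and vehicle was at or above 88.3 points. The KLK2 region was called at 0.03 nM alone (limma adjusted p = 0.0402). With the 2 doses together it was called with an overlap of 1 bp (limma adjusted p = 0.0352) and with all entries as deposited (0.0425). It was not called with a summit within 250 bp (limma adjusted p = 0.95). For FKBP5, a steroid receptor co-chaperone gene, the low-dose mean was 59.4 ± 11.02 points (SD, n = 6) and the vehicle mean 37.1 ± 33.7 points (SD, n = 3; limma adjusted p = 0.636).

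TMPRSS2, a protease gene, had a lower mean at its region of smallest p, 68.6 ± 11.05 points at the low doses (SD, n = 6) and 86.3 ± 0.351 points in vehicle (SD, n = 3), which did not pass (limma adjusted p = 0.606). NDRG1, a stress-responsive gene, had 64.0 ± 15.8 and 41.7 ± 5.07 points (limma adjusted p = 0.383), and the intragenic region of the fusion partner ERG had 58.7 ± 9.41 and 31.2 ± 27.8 points (limma adjusted p = 0.56). The NDRG1 region was called with an overlap of 1 bp (limma adjusted p = 0.0281) and with all entries as deposited (0.0482). It was not called with a summit within 250 bp (limma adjusted p = 0.997).

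**Figure D3:**
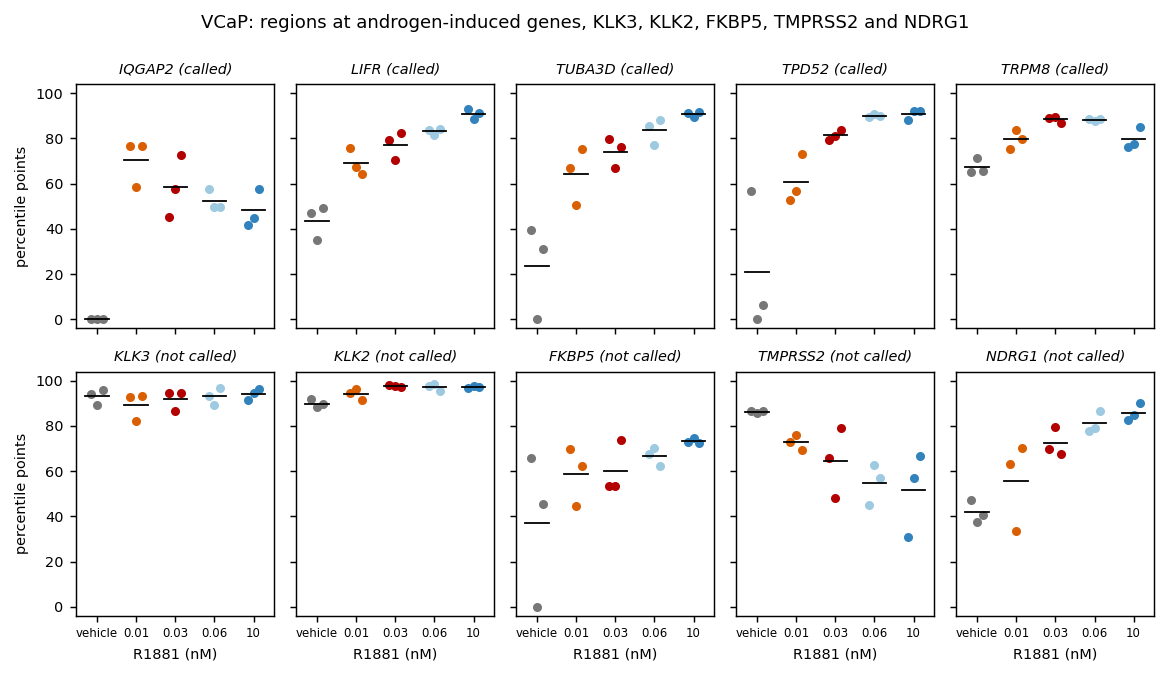
Percentile rank of 5 called regions at androgen-induced genes and of 5 regions that were not called, at KLK3, KLK2, FKBP5, TMPRSS2 and NDRG1, in every VCaP library against R1881 dose (nM). Points are libraries and bars are means of 3. KLK3 and KLK2 lie at 82.2 points or more in all libraries.

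Of 15 androgen-repressed genes with a tested region, 2 had a region that rose and the same 2 one that fell, DDC and CDH2. Their list held 261 regions, of which 4 were called (1.53%), beside 0.317% of all regions tested, with a median difference of 0.70 points. Inside DDC, an enzyme gene of dopamine and serotonin synthesis, one site (chr7:50489712-50490212) had 0 in all 6 low-dose libraries, against 43.6, 46.5 and 34.1 points in vehicle, and was tested only because the vehicle libraries listed it. It fell by 41.4 points (SE 6.82, limma adjusted p = 0.00874), and no VCaP library at 0.06 or 10 nM listed it. Another site inside DDC (chr7:50508620-50509120) had 84.1, 85.9 and 85.6 points at 0.01 nM and 93.5, 88.4 and 86.8 points at 0.03 nM, against 71.6, 82.2 and 69.8 points in vehicle (limma adjusted p = 0.0288). At CDH2, the N-cadherin gene, a site 9.82 kb away rose by 49.6 ± 8.81 points (SE, limma adjusted p = 0.0156) and an intragenic site fell by 36.8 points (SE 7.58, limma adjusted p = 0.0395).

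Lists of other genes held at most 1 call each, to be read beside the 0.317% called among all regions tested. ETS factors had 1 of 191 regions called (0.524%), 8.79 kb from ETV5, with 82.3, 72.1 and 83.2 points at 0.01 nM and 86.8, 71.7 and 78.1 points at 0.03 nM, against 51.0, 56.9 and 61.4 points in vehicle (limma adjusted p = 0.0336). Lipid and sterol synthesis had 1 of 194 (0.515%), inside ACACA, the acetyl-CoA carboxylase gene, where 1 of the 0.01 nM libraries had no peak and the 0.03 nM mean was 79.7 ± 1.498 points (SD, n = 3), against 3.48 ± 6.02 points in vehicle. Cell cycle genes had 1 of 119 (0.84%), inside CCNE2, the cyclin E2 gene, at 0.172 kb from its end. That call was not made with an overlap of 1 bp (adjusted p = 0.968), and the difference turned negative with stricter peak lists. No region was called in the lists of transcriptional cofactors and luminal factors (25 genes, 315 regions), nuclear receptors (19 genes), cell cycle inhibitors (18 genes) or polyamine synthesis (11 genes). The lists of basal, stromal, immune and neuroendocrine markers and of housekeeping genes held none either. Together the lists without a call held 927 regions, of which 82 had an unadjusted p under 0.05 (limma), a share to set beside 8.56% of all regions tested.

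All 61 regions that fell had a peak in every vehicle library, and 21 had none in any of the 6 low-dose libraries. The filter asked for a peak in 3 or more of the 9 libraries, so all 61 met it through the vehicle libraries alone, where they are high. Regions with a peak in fewer than 3 low-dose libraries, the 21 among them, could not have met it otherwise. With a peak asked for in at least 5 libraries, 16 of the 61 were tested. The median over these regions was 1.3, 0 and 0 points at 0.01 nM and 0 in all 3 libraries at 0.03 nM, against 45.9, 55.5 and 39.0 points in vehicle. At 47 of the 61 no 10 nM library listed a peak. The sites near IDE and IBTK are also among the 61, and there only the 0.03 nM libraries were low.

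Under the same conditions the 8 largest falls were near TMEM182, SCN3A, TPD52-MRPS28, LRATD1, PCED1B, NEDD4L, TMEM74 and RNF130. TPD52-MRPS28, LRATD1, NEDD4L, TMEM74 and RNF130 had too few low-dose peaks to pass the filter without vehicle. They were thus tested only through the vehicle libraries, where they are high. Inside SCN3A, a sodium channel gene (chr2:165185543-165186043), the values were 14.2, 0 and 28.6 points at 0.01 nM and 8.1, 0 and 1.4 points at 0.03 nM, against 59.5, 66.5 and 56.9 points in vehicle. The groups did not overlap, and the fall was 52.2 points (SE 9.66, limma adjusted p = 0.021). Inside NEDD4L, a ubiquitin ligase gene (chr18:58231912-58232412), the values were 30.9, 0 and 15.6 points at 0.01 nM and 0 in all libraries at 0.03 nM, against 58.1, 55.4 and 49.2 points in vehicle. Inside TMEM74 (chr8:108769826-108770326) 7.9, 0 and 4.5 points at 0.01 nM and 0 at 0.03 nM stood against 36.4, 65.1 and 43.4 points in vehicle.

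Over the 8 falls, low-dose libraries lay at 0 to 31.8 points and vehicle libraries at 29.5 to 73.5 points, and 6 of the 8 sites were at 0 in all 10 nM libraries. With vehicle replicate 4 as the only vehicle library, the differences ran from −61.5 points at TMEM182 to −28.1 points at RNF130. That fit takes no spread from vehicle, so no call of a region is read from it, here or at the rises. At TPD52-MRPS28 and TMEM74, for example, the SD was 16.2 and 14.9 points in vehicle and 0 at 0.03, 0.06 and 10 nM (n = 3 each). The number of falls was loose: it was 457 without vehicle replicate 4 and 31 with all entries as deposited.

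**Figure D4:**
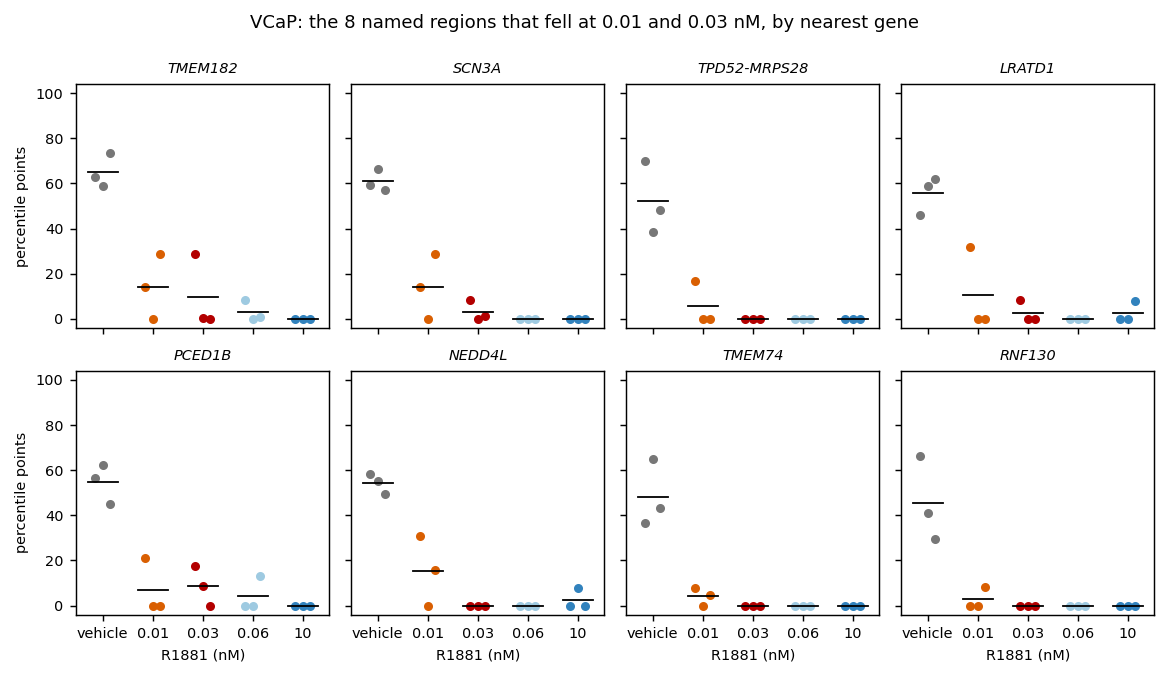
Percentile rank of the 8 named regions that fell, by nearest gene, in every VCaP library against R1881 dose (nM). Points are libraries and bars are means of 3. Low-dose libraries lie at 0 to 31.8 points and vehicle libraries at 29.5 to 73.5 points.

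LNCaP at 0.03 nM gave a comparison with no shared library. The LNCaP lists were shortened to 134750 entries and ranked separately, so levels are not set across the lines, only changes. At the same regions LNCaP had 2835 higher (3.42%) and 225 lower (0.271%) of 82931 tested. Of the 255 regions that rose in VCaP, 188 were tested in LNCaP, and 126 of these (67.0%) were called higher there and none lower (limma, none lower at an unadjusted p under 0.05 either), beside 3.44% higher among all regions tested in both lines. The LNCaP difference was positive at 175 of the 188 (93.1%), against 52.5% of all regions tested in both lines, with a median of 32.8 points. The LNCaP filter asked for a peak in 3 or more of the 6 libraries of 0.03 nM and vehicle. A region without a peak in any LNCaP vehicle library was thus tested only through the 0.03 nM libraries, where it is high. The other regions of the 255 had too few LNCaP peaks to be tested. The fit held all 15 LNCaP libraries, and with only the 6 libraries of 0.03 nM and vehicle limma called no region in either direction (5709 at an unadjusted p under 0.05). Leaving out any 1 of the 6 libraries left 114 to 135 of the 188 called higher. The other way round, the 126 were 5.34% of the 2361 regions called higher in LNCaP and tested in VCaP.

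Among the named rises, 9 of 12 were tested in LNCaP and 8 were called higher. ZDHHC21 had 75.4, 68.8 and 71.5 points in LNCaP at 0.03 nM, against 0 in all 3 LNCaP vehicle libraries. SMARCAL1 likewise had 73.2, 72.6 and 72.3 points, against 0. SPOCK1, ZDHHC21, FILIP1L, MYL10 and SMARCAL1 had no peak in any LNCaP vehicle library. They were tested in LNCaP only through the 0.03 nM libraries, where they are high. LLPH had no listed peak in any of these 6 LNCaP libraries, and GCNT1 and ALDH2 too few peaks there to be tested.

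Of the 61 regions that fell, 33 were tested in LNCaP and none was called in either direction (limma, 4 lower and none higher at an unadjusted p under 0.05). LNCaP called 0.204% of all regions tested in both lines lower, so no call among 33 is near that share. They had a negative difference at 25 (75.8%, against 47.5% of all regions tested in both lines) and a median of −6.16 points. LRATD1 and PCED1B, for example, had LNCaP means of 73.3 ± 6.90 and 63.5 ± 15.2 points at 0.03 nM and 76.3 ± 7.56 and 69.7 ± 6.42 points with vehicle (SD, n = 3 each).

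**Figure D5:**
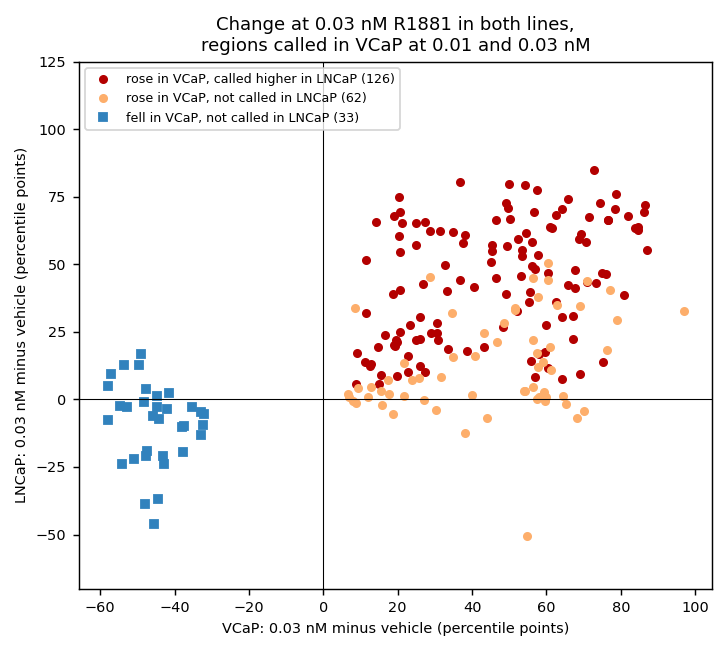
Change at 0.03 nM R1881 against vehicle, in percentile points, in VCaP (horizontal) and LNCaP (vertical), at the called VCaP regions that were tested in LNCaP. Each point is 1 region. Of 188 regions that rose in VCaP, 175 have a positive change in LNCaP, and none of the 33 that fell was called in LNCaP.

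A test of the difference between the lines at 0.03 nM called 165 of 68656 regions (0.24%), 27 with the larger and 138 with the smaller change in VCaP, the 138 including 2 of the 33 falls. With only the 12 libraries of 0.03 nM and vehicle the test called 2, neither of them among the regions that rose in VCaP, and without VCaP vehicle replicate 4 or LNCaP 0.03 nM replicate 3 it called 542 and 100. Among the regions that rose in VCaP, 14 changed more in VCaP and 11 changed less. The 14 had LNCaP vehicle means of 62.2 to 96.7 points, so peaks were listed there in LNCaP without androgen. An intergenic site 33.0 kb from GLYAT (chr11:58675484-58675984) was one of them, with a VCaP change of 59.8 points at 0.03 nM and an LNCaP change of 0.97 points. The 11 had VCaP vehicle means of 57.03 to 88.5 points, with LNCaP vehicle means of 0 to 75.4 points. TRPM8 belongs here, with a change of 21.1 points in VCaP and 65.3 points in LNCaP. The part of these starting ranks in the difference was not tested.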

How the data were processed

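Omni-ATAC-seq peak lists of the VCaP libraries at 0.01 nM, 0.03 nM and vehicle (3 each) were analysed, with the VCaP libraries at 0.06 and 10 nM and the LNCaP libraries as context. Groups, doses and replicate numbers came from the labels. MACS2 2.2.7.1, deepTools 3.5.1, BWA 0.7.17 and Trimmomatic 0.39 are listed, with the build GRCh38 (hg38), in the submitters' processing notes; their parameters are not given in the sources used here. The authors deposited 1 peak list per library, not pooled. Each deposited list gives a score, the ratio (fold enrichment) of the summit over local background, the −log10 p, the −log10 q and the summit's offset in bp.

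Entries on chromosomes 1 to 22 and X were kept. The lists were shortened to the shortest of the 9 by −log10 p and ranked as percentiles. Windows reaching 250 bp to either side of summits, strongest first and not overlapping, gave 258841 regions. A region took from each library the entry covering its centre base with the nearest summit, and 0 without one. limma 3.58.1 (R 4.3.3) fitted 5 group means over the 15 VCaP libraries, with trend and robust moderation, two-sided, at regions with an entry in at least 3 of the 9 libraries. LNCaP was fitted in the same way at regions with an entry in at least 3 of its 6 libraries at 0.03 nM and vehicle, and the line difference over all 30 libraries. The test was tried on simulated data with known changes.

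The lists hold no read counts, and counting intervals are therefore not given. Relative depth came from solving fold and −log10 p for the summit pileup under a Poisson model, with 100% of solved pileups within 0.05 of a whole number. The background pileup is percentile 1 of the solved backgrounds. A region at 0 may hold signal below the authors' threshold. Shared p values of weak entries give ties, which took the mean rank.

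Gene bodies and promoters were those of RefSeq GRCh38.p14, and genes were matched by symbol. Named regions were the 12 largest rises and 8 largest falls with separate groups that stayed called with an overlap of 1 bp and with a summit within 250 bp, 1 per gene. For 0.03 against 0.01 nM up to 4 each way were named. From the gene lists the called region of smallest p was named, up to 12 androgen-induced genes, 6 androgen-repressed genes and 2 genes of any other list. KLK3, KLK2, FKBP5, TMPRSS2, ERG, NDRG1 and TRPM8 were always named. Some genes under these rules are not reported here. The other DDC and CDH2 regions, GLYAT, MYCBP2, SCARB1 and the promoter sites were named after their values were seen. The libraries, gene lists and tests were chosen with earlier results of these data known.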

Additional observations from a re-analysis of the deposited data

Results flagged for a closer look

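At 1 named site, 0.965 kb from TRPM8, VCaP and LNCaP differed in their change at 0.03 nM (limma interaction over 30 libraries, adjusted p = 0.0029). TRPM8 had 89.2, 89.4 and 86.6 points at 0.03 nM in VCaP, against 65.1, 71.2 and 65.7 points in VCaP vehicle. In LNCaP it had 84.5, 78.0 and 68.0 points at 0.03 nM, against 14.1, 20.5 and 0 points in vehicle. The VCaP change minus the LNCaP change was −44.2 points. The site was not called with only the 12 libraries of 0.03 nM and vehicle in the fit. The starting ranks of the 2 lines did not overlap, and their part in the difference was not tested.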

How the results depend on the processing

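The regions higher at 0.01 and 0.03 nM, 255 in number, were 10 with only the 9 libraries in the fit, 401 with the replicate block, 32 with the stricter threshold (−log10 q of at least 5), 137 with the 50000 strongest entries, 649 with all entries as deposited and 103 with normal scores. At regions with an entry in all 9 libraries they were 105 with pileups and 68 with ranks. Leaving out 1 library gave 118 to 722, the highest without vehicle replicate 4. The 61 lower regions were 0, 116, 17, 127, 31 and 6 under the first 6 of these settings, and 5 and 0 at regions with an entry in all 9. They were 18 and 16 with an entry in at least 5 or at least 1 of the 9 libraries, 126 with vehicle replicate 4 alone, and 18 to 457 with 1 library left out.

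The 32 calls at 0.01 nM were 3 with only the 9 libraries, 62 with the replicate block, 53 with an overlap of 1 bp, 66 with a summit within 250 bp, 50 with an entry in at least 1 library and 8 with the stricter threshold. They were 12 with the 50000 strongest entries, 93 with all entries, 71 when ranked by fold enrichment, 2 with pileups and 6 with ranks at regions with an entry in all 9, 270 with vehicle replicate 4 alone, and 5 to 396 with 1 library left out. The 293 calls at 0.03 nM were 12 with only the 9 libraries, 553 with the replicate block, 52 with the stricter threshold, 858 with all entries, 80 with normal scores, 82 with ranks at regions with an entry in all 9, 486 with vehicle replicate 4 alone, and 102 to 1006 with 1 library left out. For 0.03 against 0.01 nM the 2 calls were 0 with an overlap of 1 bp and with pileups or ranks at regions with an entry in all 9. They were 1 with a summit within 250 bp, the stricter threshold, all entries, fold enrichment or normal scores, 5 with an entry in at least 1 library, 6 with vehicle replicate 4 alone, and 2 to 27 with 1 library left out. Vehicle replicate 4 alone leaves 1 vehicle library, so its counts in this section only show how the number moves. The next 2 settings were chosen after seeing the data. Without the libraries numbered 2, the counts were 416 higher and 44 lower, 110 at 0.01 nM, 487 at 0.03 nM and 36 between the doses. With the replicate block and only the 9 libraries, they were 2 higher and 0 lower, 0 at 0.01 nM, 4 at 0.03 nM and 2 between the doses. For LNCaP at 0.03 nM, the 2835 higher and 225 lower regions were 0 and 0 with only the 6 libraries, and 2137 to 3088 and 186 to 442 with 1 library left out, the 442 without vehicle replicate 5. The 126 regions called higher in both lines were 0 with only the 6 libraries, 130 with the replicate block and 114 to 135 with 1 library left out, and the 165 calls of the line difference were 2 with only the 12 libraries and 100 to 542 with 1 left out. These LNCaP settings were also chosen after seeing the data.

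Of the 255 higher regions, 253 kept their call with the replicate block, 247 with all entries, 226 with an overlap of 1 bp and 79 with normal scores, and all 255 kept their direction whichever library was left out. Same-numbered libraries of different groups had correlations of their deviations of 0.0851 to 0.253, against −0.231 to 0.0625 for others, and each library correlated best with its own number, a hint from the data and not the design. Not every pair exceeded 0.1, so the numbers were not taken to pair the samples. Among named regions the difference changed sign at IBTK with an overlap of 1 bp (0.30 points) and at CCNE2 with the stricter threshold (−28.85 points) and the 50000 strongest entries (−2.935 points), and the cause was not tested. The lists hold no reads, so shallow vehicle replicates 1 and 2 limit what a value of 0 in vehicle shows.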

Other observations

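Genes with 2 regions that rose were GLYAT, a glycine acyltransferase gene, MYCBP2, a ubiquitin ligase gene, and SCARB1, the receptor for high-density lipoprotein. They had 6, 13 and 20 regions tested. The rises were 50.05 and 59.8 points near GLYAT and 32.0 and 57.6 points inside MYCBP2. At SCARB1 an intragenic site (chr12:124825501-124826001) had 61.4, 72.5 and 60.6 points at 0.01 nM and 76.5, 84.4 and 64.4 points at 0.03 nM, against 26.2, 0 and 5.8 points in vehicle, a rise of 59.3 ± 8.53 points (SE, limma adjusted p = 0.00253). The other SCARB1 site, 0.011 kb from the gene's end, had 93.1 to 95.9 points in the low-dose libraries and 85.2 to 90.9 points in vehicle. That is a rise of 7.41 points (limma adjusted p = 0.044) at a site that was already high.

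Chromosome 8 held 26 of the 255 regions that rose (10.2%), against 5.64% of all regions tested. No named region on that chromosome was given a nearest promoter, even inside a gene. The counts of promoter windows therefore appear to leave its regions out, these 26 among them. Of the 2361 regions called higher in LNCaP at 0.03 nM and tested in VCaP, 82.3% had a positive difference in VCaP at the low doses, against 46.7% of all regions tested, with a median of 12.3 points.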
